A study of Saccharomyces cerevisiae with 4 samples.

Results

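The 10 ADE genes of the budding yeast Saccharomyces cerevisiae examined here encode the enzymes that build the purine ring and turn it into AMP. They were chosen by their systematic names, all 10 were found among the 6176 genes of the deposited table, and all 10 had a value on each of the 4 arrays. The rule names the genes and reads no array value, although earlier results of these data were known when they were picked. The labels of 9 members equal the symbols in a table of yeast gene names, and ADE5,7 is written there as ADE57.

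Purine synthesis starts from phosphoribosyl pyrophosphate (PRPP), on which the ring is assembled step by step until inosine monophosphate (IMP) is reached. From IMP one branch leads to AMP and another to GMP. In yeast the factors Bas1 and Pho2 activate most of these genes when purines are scarce, and adenine taken up from the medium represses them. Rapamycin blocks the TORC1 kinase complex, which lets cells grow and make ribosomes when nutrients are plentiful.

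The groups were the ptc1 strain, which lacks the type 2C protein phosphatase Ptc1, and a wild-type strain. The labels name neither the strain background nor the ptc1 allele. Both were grown at 28 °C in rich YPD medium and, at an absorbance of 0.5 at A660, received either rapamycin at 200 ng/ml for 1 h or a mock treatment with the ethanol and Tween-20 vehicle. Each 2-colour array set rapamycin-treated against mock-treated cells of the same strain, and the design text, which gives a dye swap for every RNA sample, was read to mean that the 2 arrays of a strain repeat 1 RNA pair. Separate cultures for the 2 arrays are not mentioned, but the labels do not settle this.

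Every strain was therefore counted as 1 biological sample and no p-value was calculated. The ± of a strain mean is the SD of its 2 arrays, which on this reading carries technical spread. The deposited ratios were taken to be log2 of rapamycin over mock. Their log base and direction are not stated, and folds and the words higher and lower rest on this reading. The words rose and fell are kept for genes whose mean was 2-fold or more (a log2 ratio of 1 or more in size) and whose arrays both had that sign. The number of arrays limits the precision. The ptc1 arrays have one dye for the rapamycin sample in their titles and the other in their dye fields. Under either reading both strain means hold both dye orientations. PTC1 itself (YDL006W) had no value on either ptc1 array and read 0.003 and −0.525 on the wild-type arrays.

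Rapamycin left most ADE genes under 2-fold in both strains. ADE5,7 was the member that fell, 2.36-fold lower in ptc1 and 2.43-fold lower in the wild type, and none of the 10 rose. That makes 1 of 10 members lower in each strain, where 12.4% of the 5221 genes measured on both ptc1 arrays and 15.0% of the 4796 measured on both wild-type arrays were lower by the same rule. Risen genes, 0 among the members, made up 10.6% of all genes in ptc1 and 13.8% in the wild type. In either direction the rule held for 22.9% of genes in ptc1 and 28.7% in the wild type, so that 1 call among 10 members is no more than the share of all genes. The median of the members was 0.01 in ptc1 and −0.07 in the wild type, beside medians over all genes of 0.08 in ptc1 and 0.07 in the wild type. The median size of a response, its sign set aside, was 0.42 for the members against 0.49 for all genes in ptc1, and 0.39 against 0.59 in the wild type.

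**Figure D1:**
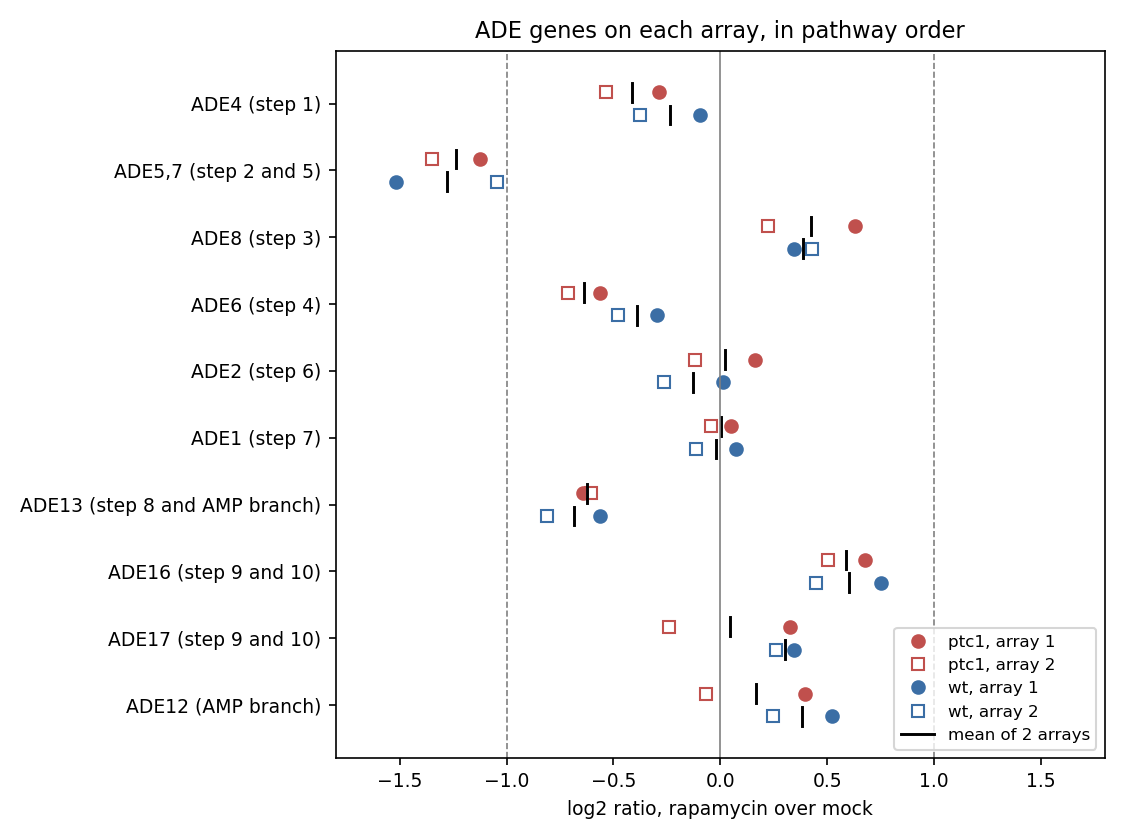
Log2 ratio of rapamycin-treated over mock-treated cells (horizontal axis) for each ADE gene in pathway order (rows), with ptc1 above the wild type. Points are single arrays (filled circle array 1, open square array 2), black ticks are means and dashed lines mark 2-fold; ADE5,7 is past the line on all 4 arrays, and all values of the other members lie inside the lines.

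The first committed step is catalysed by PRPP amidotransferase, the product of ADE4 (YMR300C). Its log2 ratios were −0.287 and −0.535 on the ptc1 arrays, against −0.095 and −0.376 on the wild-type arrays. All 4 values were below 0 and the strains overlapped. The means of −0.41 ± 0.18 in ptc1 and −0.24 ± 0.20 in the wild type did not reach 2-fold.

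ADE5,7 (YGL234W) encodes a single protein with a pair of activities, glycinamide ribotide synthetase and aminoimidazole ribotide synthetase, which act early and midway in ring assembly. It read −1.124 and −1.348 in ptc1 and −1.519 and −1.043 in the wild type. The 4 values were all past 2-fold, and those of ptc1 lay between the wild-type values. The means were −1.24 ± 0.16 in ptc1 and −1.28 ± 0.34 in the wild type. In the order of all genes, 9.69% had a lower mean than ADE5,7 in ptc1 and 11.7% in the wild type.

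The folate-dependent glycinamide ribotide transformylase is encoded by ADE8 (YDR408C), and its values differ in sign from those of ADE5,7, which encodes the preceding enzyme. ADE8 had 0.629 and 0.222 in ptc1 and 0.344 and 0.428 in the wild type, above 0 on every array. The means were 0.43 ± 0.29 in ptc1 (1.34-fold higher) and 0.39 ± 0.06 in the wild type (1.31-fold higher), and neither passed the rule.

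ADE6 (YGR061C) encodes formylglycinamidine ribotide synthetase, which takes its nitrogen from glutamine. It read −0.563 and −0.712 in ptc1, against −0.298 and −0.481 in the wild type. Both ptc1 values lay below both wild-type values, and the arrays of the strains overlapped for the other 9 members. Over all genes the strains did not overlap for 34.7%, so 1 of 10 members is no more than the share of all genes. A strain effect on ADE6 itself was not tested. The means were −0.64 ± 0.11 in ptc1 and −0.39 ± 0.13 in the wild type.

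ADE2 (YOR128C), the gene of aminoimidazole ribotide carboxylase whose loss turns yeast colonies red, stood close to 0. Its values were 0.163 and −0.120 in ptc1 and 0.012 and −0.263 in the wild type, so that the sign differed between the arrays of each strain. ADE1 (YAR015W), which encodes the next enzyme, SAICAR synthetase, had 0.052 and −0.045 in ptc1 and 0.075 and −0.112 in the wild type. With means of 0.0035 ± 0.069 in ptc1 and −0.02 ± 0.13 in the wild type it was the member nearest to 0 in both strains.

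ADE13 (YLR359W) encodes adenylosuccinate lyase, which acts both in ring assembly and in the last step to AMP. It had −0.643 and −0.603 in ptc1, against −0.563 and −0.809 in the wild type. Every value was below 0 and the ptc1 values lay within the wild-type range. The means were −0.62 ± 0.03 in ptc1 (1.54-fold lower) and −0.69 ± 0.17 in the wild type (1.61-fold lower).

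The last steps to IMP are carried out by a pair of isoenzymes, encoded by ADE16 and ADE17, each with AICAR transformylase and IMP cyclohydrolase activity. ADE16 (YLR028C) read 0.678 and 0.503 in ptc1, against 0.752 and 0.449 in the wild type, and its means of 0.59 ± 0.12 in ptc1 and 0.60 ± 0.21 in the wild type were the highest of the members. ADE17 (YMR120C) read 0.327 and −0.238 in ptc1, against 0.345 and 0.259 in the wild type. ADE17 was thus above 0 on 3 of the 4 arrays, with a mean of 0.04 ± 0.40 in ptc1 and 0.30 ± 0.06 in the wild type. The array values of ADE16 were above those of ADE17 within each strain. The genes are similar, and how far their spots share signal was not examined.

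ADE12 (YNL220W) encodes adenylosuccinate synthetase, the first enzyme on the way from IMP to AMP. It had 0.397 and −0.066 in ptc1 and 0.521 and 0.247 in the wild type. Its means were 0.17 ± 0.33 in ptc1, where the sign differed between arrays, and 0.38 ± 0.19 in the wild type. ADE13, the other gene of this branch, had means on the opposite side of 0 in both strains.

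Across the 4 arrays ADE4, ADE5,7, ADE6 and ADE13 were below 0 each time, ADE8 and ADE16 above 0 each time, and ADE1, ADE2, ADE12 and ADE17 had values of both signs. From the lowest to the highest mean the order in ptc1 was ADE5,7, ADE6, ADE13, ADE4, ADE1, ADE2, ADE17, ADE12, ADE8 and ADE16. In the wild type ADE13 and ADE6 changed places, and so did ADE1 and ADE2. Of the 9 pairs of neighbours in this order, 6 in ptc1 and 5 in the wild type had overlapping array values, so much of the order is not resolved. In ptc1 this includes the upper end, where ADE8 overlapped with both ADE12 and ADE16. In both strains ADE5,7 was separated from the next member, by 0.60 on the log2 scale in each, with no overlap of arrays. The distance from lowest to highest member was 1.83 in ptc1 and 1.88 in the wild type.

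**Figure D2:**
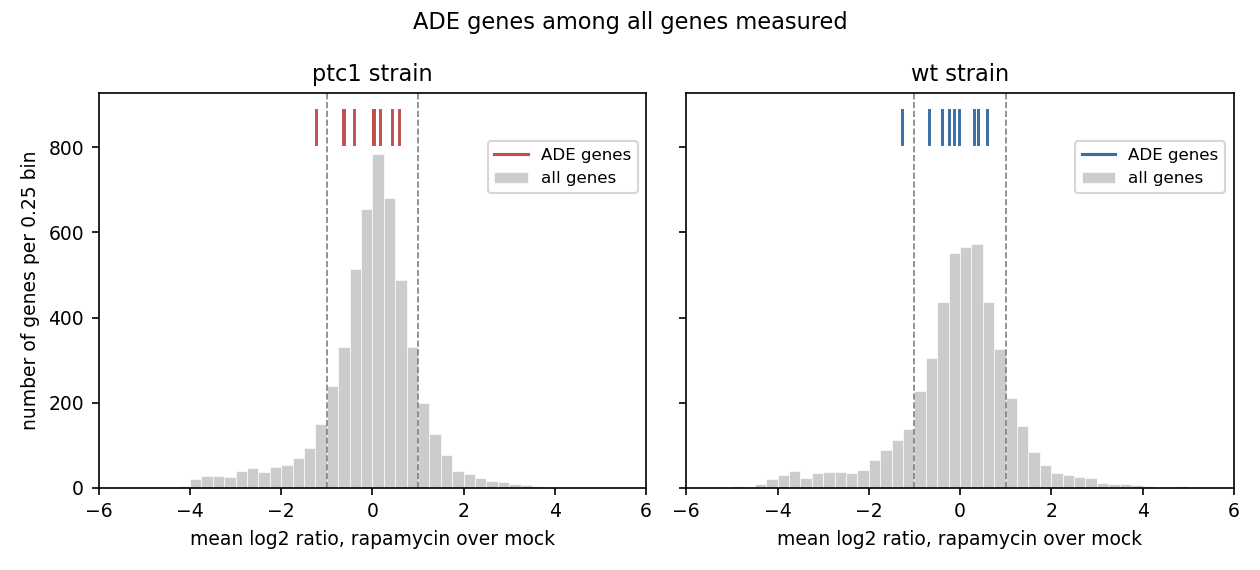
Number of genes (vertical axis) by mean log2 ratio of rapamycin over mock (horizontal axis, bins of 0.25), for ptc1 on the left and the wild type on the right, with the ADE genes as coloured ticks above the bars and dashed lines at 2-fold. The members lie between −1.24 and 0.59 in ptc1 and between −1.28 and 0.60 in the wild type, inside the main body of genes.

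The question of whether the response depends on Ptc1 was asked by setting the ptc1 mean against the wild-type mean. A strain difference needed means that were at least 1 apart and, in each of the 4 pairings of a ptc1 array with a wild-type array, the same direction. By this rule 0 of the 10 members differed, where 1.91% of the 4650 genes measured on all 4 arrays did. The differences, ptc1 minus wild type, ran from −0.26 to 0.15 with a median of 0.01, and 5 were above and 5 below 0. Their median size was 0.11, against 0.21 over all genes. With 1 RNA pair per strain these values have no replicate check, and small strain effects cannot be seen at this precision.

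For ADE6 the difference was −0.25 ± 0.17, where the ± combines the SDs of both strains, and over the 4 array pairs it lay between −0.41 and −0.08. Of the 10 members 1 thus kept its sign in all pairs, beside 34.7% of all genes. ADE17 was lower in ptc1 by a like amount (−0.26 ± 0.40), but its pairs ran from −0.58 to 0.07. ADE12 (−0.22 ± 0.38) and ADE4 (−0.18 ± 0.27) were also within their combined SD. With arrays matched across strains by dye as the titles give it, ADE4 (−0.192 and −0.159), ADE6 (−0.265 and −0.231), ADE2 (0.151 and 0.143), ADE12 and ADE17 kept their sign in both pairs, which 44.0% of all genes did. With the dye fields ADE6 alone did so, against 55.2% of all genes. For ADE5,7 the difference was 0.05 ± 0.37 and for ADE16 it was −0.01 ± 0.25. Across the 10 members the strain means correlated with Pearson's r = 0.966, and with r = 0.936 over the 9 without ADE5,7. Across 4650 genes r was 0.960. Within a strain the members share arrays and labelling.

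**Figure D3:**
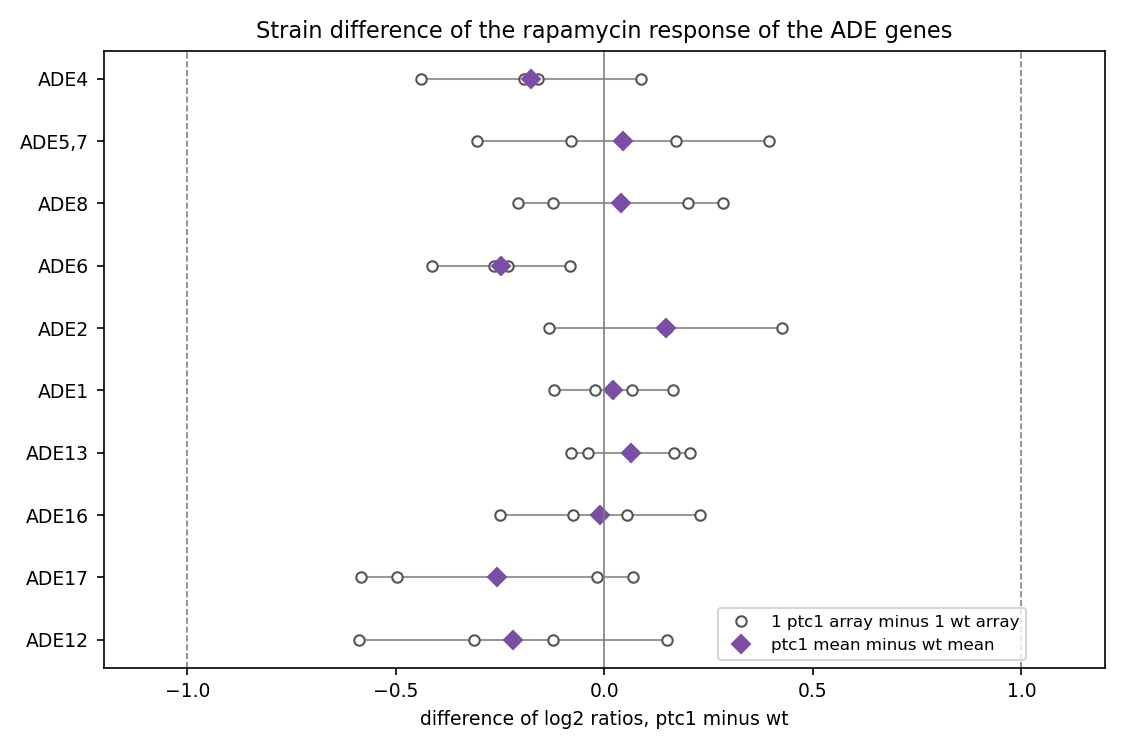
Difference of the log2 ratios, ptc1 minus wild type (horizontal axis), for each ADE gene (rows), with the difference of means as diamonds, the 4 differences between single arrays as open circles and dashed lines at a 2-fold difference. The mean differences run from −0.26 to 0.15, and the circles of ADE6 alone lie on 1 side of 0.

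The factors that activate the ADE genes did not pass the rule. BAS1 read −0.678 and 0.163 in ptc1, against −0.557 and −0.513 in the wild type, and its ptc1 arrays lay on opposite sides of 0. PHO2, which encodes the homeodomain partner of Bas1, had 0.755 and 0.254 in ptc1 and 0.591 and 0.643 in the wild type, above 0 throughout.

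The genes that supply the pathway with PRPP had lower medians than the ADE genes. Of the 5 PRPP synthetase genes 3 fell in each strain, with medians of −1.09 in ptc1 and −1.64 in the wild type. Over all genes 12.4% fell and 10.6% rose in ptc1, and 15.0% fell and 13.8% rose in the wild type. These shares also stand beside the counts of the lists that follow. PRS1 was lowest, at −1.807 and −2.034 in ptc1 and −2.184 and −2.233 in the wild type. PRS3 and PRS4 also fell, while PRS2 was highest (−0.21 ± 0.34 in ptc1 and −0.11 ± 0.06 in the wild type). PRS5 did not pass the rule on its mean in either strain, and on single arrays it did on ptc1 array 2 and wild-type array 1.

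On the branches from IMP, all 4 genes on the way to GMP fell in both strains, with medians of −2.73 in ptc1 and −3.06 in the wild type, whereas of the AMP branch genes ADE12 and ADE13 neither passed the rule. GUA1, the gene of GMP synthetase, had −3.264 and −3.659 in ptc1 and −3.831 and −3.948 in the wild type. IMD2, one of the IMP dehydrogenase genes, was the highest of the 4, at −1.11 ± 0.53 in ptc1 and −1.36 ± 0.11 in the wild type, and its ptc1 array 2 alone (−0.732) was under 2-fold. IMD2, IMD3 and IMD4 are similar genes, and how far their spots share signal was not examined, which leaves each value uncertain.

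Purine salvage and interconversion genes, which recover bases and nucleosides, moved in both directions. In ptc1 3 of 14 measured genes rose and 5 fell, and in the wild type 2 of 12 rose and 5 fell. HPT1, the hypoxanthine-guanine phosphoribosyltransferase gene, was lowest in ptc1 (−2.92 ± 0.47), and AAH1, the adenine deaminase gene, was lowest in the wild type (−3.59 ± 0.10). GUD1, which encodes guanine deaminase, was highest in ptc1 (1.33 ± 0.07), and the IMP 5′-nucleotidase gene ISN1 was highest in the wild type (1.48 ± 0.03). Without wild-type array 2 the count of risen genes in the wild type was 1. AAH1 was the only gene of the 7 other lists past the strain rule. Over the 4650 genes measured on all 4 arrays 1.91% passed it, so 1 gene among these lists is near the share of all genes. AAH1 had −2.216 and −2.938 in ptc1, against −3.518 and −3.664 in the wild type, a difference of 1.01 ± 0.52. That call is marginal, since the difference was 0.65 without ptc1 array 1, 0.94 without wild-type array 2 and 0.80 with arrays scaled to equal spread.

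The pathway also needs formyl groups carried on folate. Among 14 one-carbon and folate genes measured in ptc1, 2 rose and 2 fell, and among 12 measured in the wild type 4 rose and 3 fell. Over all genes 10.6% rose and 12.4% fell in ptc1, so the ptc1 counts are near the share of all genes. In the wild type 13.8% of all genes rose and 15.0% fell. Without ptc1 array 2 the count in ptc1 was 4 higher and 3 lower, so the count rests on single arrays near the threshold. GCV2, a subunit gene of the glycine cleavage system, was highest in ptc1 (2.012 and 2.023) and was measured on 1 wild-type array, where it read 2.594. FOL2, the GTP cyclohydrolase gene of folate synthesis, was highest in the wild type (1.54 ± 0.08). MIS1, the mitochondrial C1-tetrahydrofolate synthase gene, was lowest in both strains, at −1.79 ± 0.37 in ptc1 and −1.97 ± 0.07 in the wild type.

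Histidine synthesis is tied to the purine pathway because it releases AICAR, the substrate of the ADE16 and ADE17 enzymes. Of 6 measured HIS genes 3 rose and 1 fell in ptc1, and 4 rose and 0 fell in the wild type, with medians of 0.86 in ptc1 and 1.42 in the wild type. HIS5 was highest in both (1.70 ± 0.72 in ptc1 and 2.64 ± 0.21 in the wild type). HIS6 was lowest in both (−1.05 ± 0.64 in ptc1 and −0.82 ± 0.15 in the wild type), and on ptc1 array 2 alone it was at −0.597, with HIS4 at 0.798. No HIS gene passed the strain rule on all 4 arrays. Without ptc1 array 1 HIS4 passed it, and without ptc1 array 2 or without wild-type array 2 HIS5 did. The rule was then passed by more of all genes: 4.34% without ptc1 array 1, 2.62% without ptc1 array 2 and 2.66% without wild-type array 2.

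Pyrimidine synthesis genes had a wider span than the ADE genes. Of 9 genes 1 rose and 4 fell in ptc1, and 2 rose and 4 fell in the wild type. URA7, which encodes a CTP synthase, was lowest, at −4.36 ± 0.29 in ptc1 and −4.95 ± 0.10 in the wild type. The orotate phosphoribosyltransferase gene URA10 was highest, at 1.37 ± 0.04 in ptc1 and 1.30 ± 0.25 in the wild type. In the wild type URA3 (1.30 ± 0.03) was level with URA10. From lowest to highest the list spanned 5.73 in ptc1 and 6.25 in the wild type, against 1.83 in ptc1 and 1.88 in the wild type for the ADE genes.

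**Figure D4:**
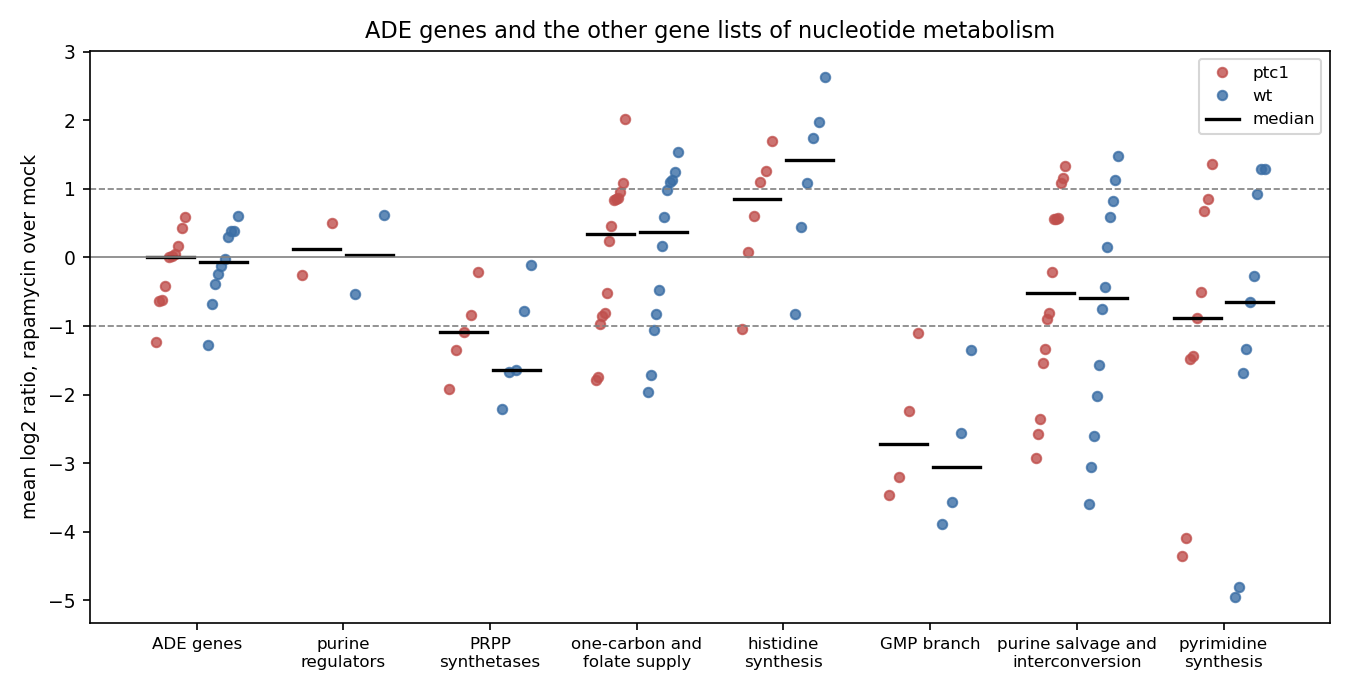
Mean log2 ratio of rapamycin over mock (vertical axis) for each gene of the ADE group and of 7 other lists of nucleotide and linked metabolism, ptc1 to the left of the wild type in each list, with medians as black bars and dashed lines at 2-fold. The ADE genes lie around 0, all GMP branch genes lie below the lower line, and pyrimidine genes span 5.73 in ptc1 and 6.25 in the wild type.

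The genes nearest to a member were sought by Euclidean distance over the 4 arrays among the 4650 genes measured on all of them. For ADE5,7, the lowest member in the wild type, they were AQR1, which encodes a plasma membrane exporter (distance 0.16), BAP3, the gene of an amino acid permease (0.18), and FRS1, a subunit gene of phenylalanyl-tRNA synthetase (0.20). For ADE16, the highest member there, they were FRA1, a gene of iron regulation (0.04), GTR1, the gene of a GTPase that regulates TORC1 (0.15), and RCF1, the gene of a respiratory supercomplex factor (0.15). The closest ADE gene ranked 575th for ADE5,7, namely ADE13 at a distance of 1.32, and 262nd for ADE16, namely ADE8 at 0.50. ADE2 and ADE1, at 0.21, were the members closest to each other, and ADE1 was the 9th nearest gene to ADE2. Members on the same chromosome, in the order of genes of the R64 reference table, were at least 197 genes apart, so no pair were neighbours.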

How the data were processed

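Per the labels, spots narrower than 120 µm or dimmer than 150 units in Cy3 and Cy5 were not used, and the ratio of medians served for normalisation. cDNA came from 8 µg of total RNA. The deposited table of the authors holds 6212 rows of log ratios, taken here as log2. For scanner software, background correction, build and log base: not given in the sources used here. The direction was taken as rapamycin over mock from the study's design; all 4 columns correlate positively, so no sign was turned. Array medians were 0.015 and 0.081 in ptc1 and 0.131 and −0.004 in the wild type.

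Gene names came from an R64 reference table (5662 by locus tag, 52 by unique synonym, 498 unmatched) and rows of 1 gene averaged. The rule for calls was tested on simulated data. The members and lists were chosen with earlier results of these data known. Named genes were all members, BAS1, PHO2, PTC1, the highest and lowest gene of each other list in each strain, genes past the strain rule, and the 3 nearest genes of the highest and the lowest member. Further genes, such as PRS3, PRS4 and PRS5, were named after their values were seen. Alternatives were centring, scaling, leaving out arrays, other folds, no condition on signs and natural logarithms. Python 3.11.15 and pandas 2.3.3 were used.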

Additional observations from a re-analysis of the deposited data

How the results depend on the processing

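The call of ADE5,7 as lower in both strains held with arrays scaled to equal spread. With arrays centred, without any 1 array, with no condition on signs and with natural logarithms it could not be lost. All 4 values of ADE5,7 were past 2-fold, and reading them as natural logarithms makes them larger in size. Centring lowered its means to −1.28 in ptc1 and −1.34 in the wild type, because the array medians were above 0 or close to it. In each of these settings ADE5,7 was the only member called. At 1.5-fold 4 members were called in ptc1 (ADE5,7, ADE6 and ADE13 lower, ADE16 higher) and 3 in the wild type (ADE5,7 and ADE13 lower, ADE16 higher), where 42.5% of all genes were called in ptc1 and 50.1% in the wild type. At 3-fold 0 members were called in either strain, where 10.8% of all genes were called in ptc1 and 14.6% in the wild type. No strain difference was called among the members under any of these settings. The share of all genes called ran from 0.151% at 3-fold to 9.27% at 1.5-fold. It was 5.94% with natural logarithms and 4.34% without ptc1 array 1. With member differences between −0.26 and 0.15, a call at 3-fold or with no condition on signs was not possible. Without 1 array the median of the members ran from −0.179 to 0.108 in ptc1 and from −0.188 to 0.044 in the wild type, and the median strain difference from −0.131 to 0.057, so the signs of these medians are not settled. Centring moved the 2 wild-type arrays by unequal amounts, and the median of the members was then −0.04 in ptc1 and −0.14 in the wild type. Single members had 90 values, strain means and strain differences, under centring, scaling or natural logarithms. Of these 73 moved by less than their SD and 17 by more, 11 of those under natural logarithms. The SD was that of the 2 arrays for a strain mean and the combined SD for a strain difference. All 17 were strain means. No paired analysis was possible because the labels give no replicate numbers and tie no RNA sample of one strain to one of the other. Matching arrays by dye, chosen after seeing the data, leaves the mean differences as they are, and by titles or dye fields 0 members were past the strain rule. If the arrays of a strain share 1 RNA pair, culture-to-culture variation is not measured.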

Other observations

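Of the 10 ADE genes 9 read lower on array 2 than on array 1 in ptc1, where 47.2% of all genes did, and 8 did so in the wild type, where 57.6% of all genes did. The median of array 2 minus array 1 was −0.24 over the members in ptc1, against 0.04 over all genes, and −0.22 over the members in the wild type, against −0.06 over all genes. By the titles array 1 of both strains had the rapamycin sample in Cy3, and by the dye fields this holds for the wild type alone. The part of the dyes in this shift was not tested.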
